A study of Mus musculus with 14 samples.

Results

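The gap junction connexins described here are 4 genes: Gja1 (connexin 43), Gja4 (connexin 37), Gja5 (connexin 40) and Gjc1 (connexin 45). They were taken by symbol from the deposited tables, and all 4 are listed, among 19322 genes in the E10 single cells, 19424 in the E11 single cells and 19425 in the whole clusters. The series measured single cells and whole intra-aortic haematopoietic clusters of the mouse embryo by CEL-Seq, which tags and counts the 3′ end of transcripts. Cells were sorted from the aorta-gonad-mesonephros region along the path from endothelium to blood, and yolk sac cells were sorted beside them. E10 embryos had 28 to 32 somite pairs and E11 embryos more than 40. Non-haemogenic endothelial cells (non-HE), haemogenic endothelial cells (HE) and cells in endothelial-to-haematopoietic transition (EHT) came from ICR embryos with the genotype label Gfi+/tomato/ Gfi1b+/GFP, alleles that report Gfi1 and Gfi1b. All 3 were sorted as Cdh5+ and Gfi1b-, with non-HE Gfi1- and c-kit-, HE Gfi1+ and c-kit-, and EHT Gfi1+ and c-kit+. Cluster cells (IAHC) were wild-type C57BL/6, sorted as c-kit+ CD31+ at both stages and also as c-kit+ at E11. Pre-HSCs, precursors of haematopoietic stem cells present at E11, were wild-type C57BL/6 and sorted as c-kit+ Cdh5+ with CD45 as an index for type I and type II. Yolk sac progenitors (YS HSPC) and whole clusters (wIAHC) were wild-type C57BL/6 and c-kit+. Strain and population cannot be told apart between the ICR and the C57BL/6 groups.

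Connexins span the membrane, assemble as hexamers and dock with those of a neighbouring cell, which opens a channel for ions and small metabolites between the cells. Gja4 and Gja5 are the connexins of arterial endothelium, while Gja1 is widespread in mesenchyme, smooth muscle and many blood-supporting cells, and Gjc1 is known from early vessels, smooth muscle and the conduction system of the heart. Cells that leave the aortic wall give up the contacts in which such channels sit.

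Promoters of 3 of the 4 members were matched by symbol in the RefSeq table of build GRCm38.p6, and Gjc1 has no entry. They are shown because Gja4 and Gja5 moved together across the populations and Gja1 did not move with them. Each is 300 bases, 250 before the gene's start and 50 from it on. Capitals mark GGAA or its reverse complement TTCC, the core letters of ETS factor motifs. The Gja5 promoter lies at chr3:97032152-97032451 on the plus strand, that of Gja4 at chr4:127313990-127314289 on the minus strand and that of Gja1 at chr10:56377050-56377349 on the plus strand.
Gja5: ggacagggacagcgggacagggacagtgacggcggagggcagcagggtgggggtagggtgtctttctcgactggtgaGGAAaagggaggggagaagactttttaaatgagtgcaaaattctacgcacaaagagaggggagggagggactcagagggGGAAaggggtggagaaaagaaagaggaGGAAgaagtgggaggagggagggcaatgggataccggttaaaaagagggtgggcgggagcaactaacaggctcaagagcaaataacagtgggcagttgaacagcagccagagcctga
Gja4: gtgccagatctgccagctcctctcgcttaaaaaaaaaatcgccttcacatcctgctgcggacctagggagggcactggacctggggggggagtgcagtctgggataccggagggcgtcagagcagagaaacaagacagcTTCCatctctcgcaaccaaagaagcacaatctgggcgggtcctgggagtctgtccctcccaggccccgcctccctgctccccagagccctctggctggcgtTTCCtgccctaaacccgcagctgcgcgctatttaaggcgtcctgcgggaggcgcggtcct
Gja1: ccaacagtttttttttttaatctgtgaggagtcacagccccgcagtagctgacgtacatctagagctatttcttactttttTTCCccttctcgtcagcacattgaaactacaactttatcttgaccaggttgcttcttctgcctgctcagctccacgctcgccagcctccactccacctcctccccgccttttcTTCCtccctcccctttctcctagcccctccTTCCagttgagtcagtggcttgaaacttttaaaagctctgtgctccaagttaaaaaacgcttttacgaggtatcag
GGAA was found 3 times in the Gja5 promoter, always on the gene's strand, with first bases at -173, -94 and -67 from the start. Gja4 held 2 matches, at -111 and -10, and Gja1 held 3, at -169, -56 and -26, all on the other strand. On either strand, 96.0% of the 32851 promoters in the table hold these letters, with a median of 3 matches, so the counts are ordinary for promoters of this length. ACAAT, letters of SOX motifs, was found in 1 member, Gja4 at -86, and in 31.0% of all promoters. CACCC, letters of KLF motifs, was found 4 times in Gja5, at -206, -195, -88 and -21 on the other strand, and in 57.5% of all promoters, but in neither Gja4 nor Gja1. TGTGGT, letters of RUNX motifs, is in 16.8% of all promoters and in 0 of these 3 windows. No match of a motif overlapped a match of another in these windows. GC content was 55.7% for Gja5, 62.0% for Gja4 and 47.7% for Gja1, against a median of 52.7%. The matches describe letters only. The 4 genes lie on chromosomes 10 (Gja1), 4 (Gja4), 3 (Gja5) and 11 (Gjc1).

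The E10 table held 546 cells with 3000 transcripts each: 43 non-HE, 98 HE, 191 EHT, 73 IAHC and 141 YS HSPC. The E11 table held 575 cells with 5000 transcripts each: 30 non-HE, 46 HE, 46 EHT, 62 type I and 55 type II pre-HSCs, 290 IAHC and 46 YS HSPC. E11 IAHC cells comprised 201 c-kit+ CD31+ and 89 c-kit+ cells. The depths had been equalised, so values of the 2 stages are compared only after E11 cells were thinned to 3000. Each population at a stage is 1 sample, apart from E11 IAHC cells with 2 and the pre-HSC types, which share 1. Cells of a sample do not stand for embryos, and they were not tested. Means are transcripts per cell. Their intervals are exact Poisson ones, and those of percentages are exact Clopper-Pearson ones, both at 95% and for counting error only. Where no transcript was seen, the limit given is a floor of 3 counts over the cells, not the end of such an interval, and it limits cells with a transcript, not cells that express the gene. Spread is given over plates, the sets of cells that share a column name. E10 HE, non-HE and YS HSPC cells had 2 plates and EHT cells 3; E10 IAHC cells and E11 HE, EHT and YS HSPC cells had 1 each, so for these plate and population cannot be told apart. For the non-HE group of E10 the columns read early E11, for the HE group E10.5 and for the EHT group E10.5 or late E10. The label, E10, was followed throughout. The sorted identities were checked on fixed lists of markers. All 10 endothelial genes, such as Cdh5 and Vwf, had transcripts in non-HE, HE, EHT and IAHC cells at both stages, and their sum at E10 went from 32.7 per cell in non-HE over 20.8 in HE and 8.91 in EHT to 7.04 in IAHC cells. At E11 it was 36.6 in non-HE, 43.4 in HE, 17.1 in EHT and 11.2 in IAHC cells. Genes of the sort were checked too. Gfi1b was at 0 in non-HE and HE cells, but EHT cells, also sorted as Gfi1b-, held 0.131 transcripts per cell at E10 and 0.152 at E11. Gfi1 was at 0.0233 in E10 and 0 in E11 non-HE cells, against 0.439 and 0.326 in HE cells. Kit was at 0.0930 and 0.233 in non-HE and 0.265 and 0.0435 in HE cells, all sorted as c-kit-, against 1.3 and 1.7 in EHT cells.

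Gja5, the arterial connexin 40, was highest in haemogenic endothelium. The 2 plates of E10 HE cells averaged 7.51 and 5.59 transcripts per cell and the 2 plates of non-HE cells 4 and 4.13. The 3 plates of E10 EHT cells averaged 0.641, 0.400 and 0.529, the IAHC plate 0.123 and both YS HSPC plates 0. No plate of a population overlapped those of the next in this order. Pooled, E10 HE cells held 6.32 (95% interval 5.83 to 6.83) and IAHC cells 0.123 (0.0564 to 0.234), and YS HSPC cells held 0 in 141 cells, which allows up to 2.13% of cells with a transcript. Of the 9 Gja5 transcripts in E10 IAHC cells, 4 lay in 1 cell. At E11 the HE plate averaged 9.67, the 2 non-HE plates 5.27 and 5.79, and the EHT plate 2.07. Type I pre-HSCs averaged 0, 0.971 and 0.05 in 3 plates and type II cells 0, 0.120 and 0.05. Over 9 plates of E11 IAHC cells the lowest was 0, the median 0.0769 and the highest 0.440. From HE over non-HE to EHT the E11 plates also kept apart, whereas type I, type II and IAHC plates overlapped.

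Gja4, the arterial connexin 37, was about as high in non-HE as in HE cells. At E10 the non-HE plates averaged 5.79 and 4.13 and the HE plates 3.95 and 4.38, which overlap. The 3 EHT plates averaged 0.656, 0.5 and 0.793 and the IAHC plate 0.164, all far below both endothelia. YS HSPC plates held 0.0154 and 0.0263, from 3 transcripts in 3 of 141 cells (2.13%, 0.44 to 6.09). That share is taken as background at a depth of 3000, although low expression in these cells cannot be told apart from it. At E11 the HE mean of 8 (7.20 to 8.86) lay between the non-HE plates of 5.64 and 8.53, and EHT cells held 2.39 (1.97 to 2.88). Type I pre-HSCs averaged 0, 0.912 and 0.05 over plates, type II cells 0, 0.120 and 0, and IAHC cells from 0 to 0.698 with a median of 0.320. These 3 groups overlap, and E11 YS HSPC cells held 0 in 46 cells, up to 6.52% of cells at a depth of 5000. E10 HE ranked Gja5 24th and Gja4 50th by level among all genes listed, and E10 IAHC cells ranked them 4630th and 3779th. Levels of different genes are compared as 3′ tagged transcripts per cell, which do not scale with transcript length.

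**Figure D1:**
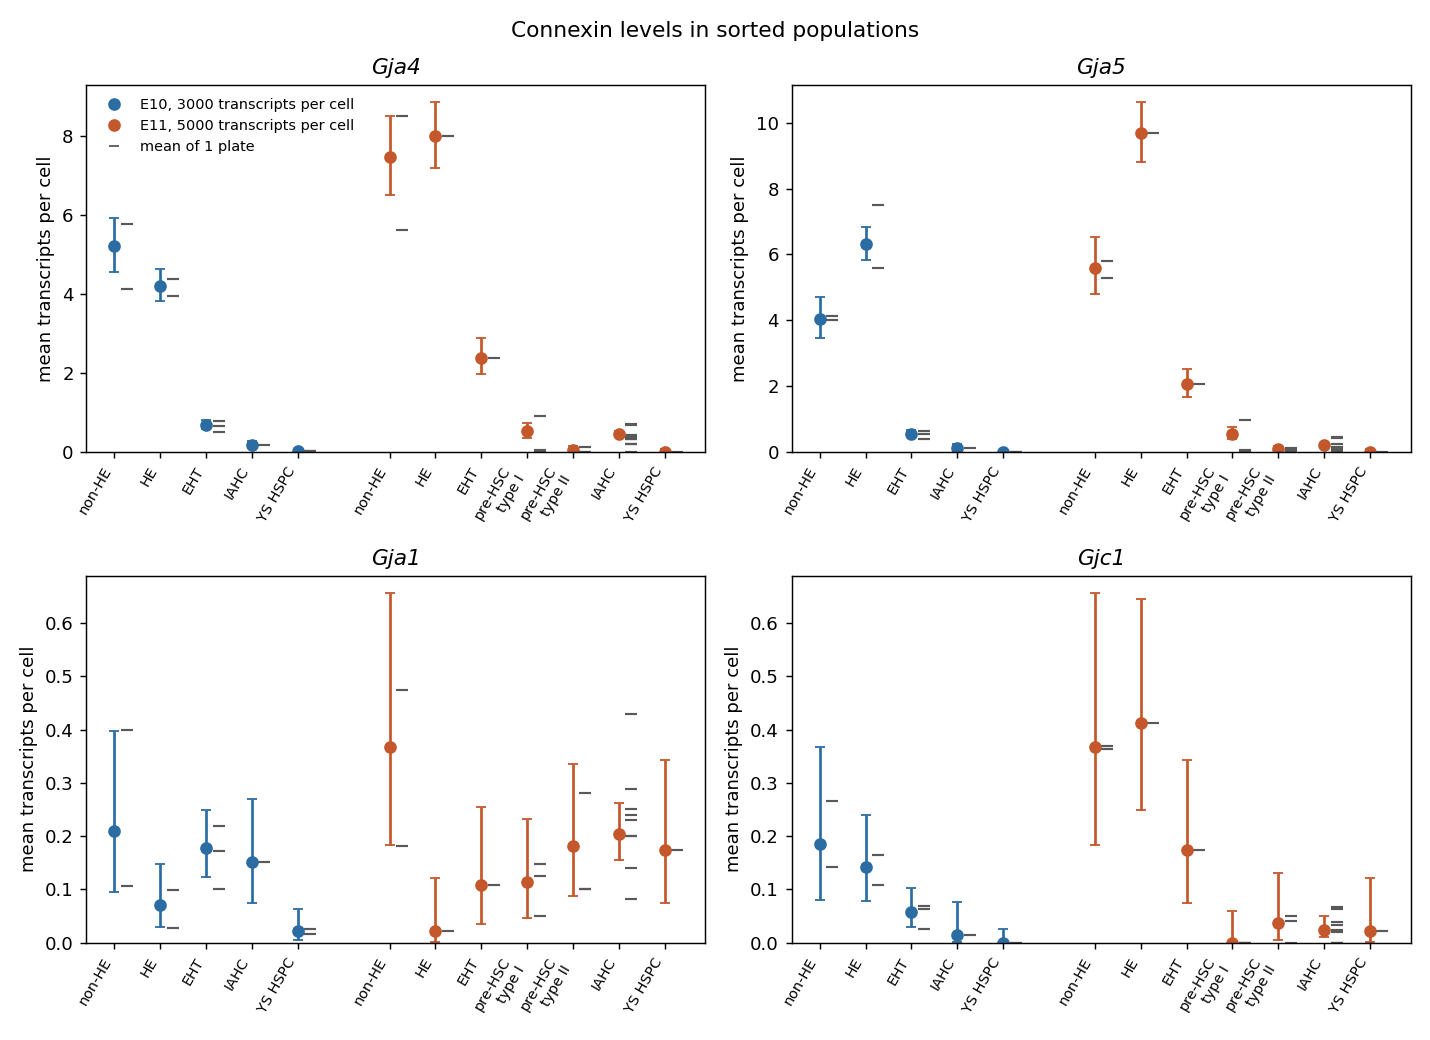
Mean transcripts per cell of each connexin in the sorted populations at E10 and E11. Circles are population means with 95% Poisson intervals, and dashes are plates. Gja4 and Gja5 lie above 4 in non-HE and HE cells and at 0.164 and 0.123 in E10 IAHC cells, while Gja1 stays below 0.5 in each population.

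Most endothelial cells carried both arterial connexins. At least 1 transcript of each was seen in 32 of 43 non-HE cells (74.4%, 58.8 to 86.5) and 84 of 98 HE cells (85.7%, 77.2 to 92.0) at E10. At E11 it was 23 of 30 non-HE cells (76.7%) and 46 of 46 HE cells. Among EHT cells the share was 30 of 191 (15.7%, 10.9 to 21.7) at E10 and 17 of 46 (37.0%, 23.2 to 52.5) at E11. No transcript of either was counted in 127 of 191 E10 and 19 of 46 E11 EHT cells, which at this depth does not set apart cells without expression from cells with little. IAHC cells had both in 3 of 73 cells (4.11%) at E10 and 27 of 290 (9.31%) at E11, type I pre-HSCs in 9 of 62 (14.5%), and type II cells in 0 of 55, which allows up to 5.45%. These E11 shares are at 5000 and the E10 shares at 3000 transcripts per cell, and at 3000 the E11 shares were 4.83% in IAHC, 8.06% in type I and 30.4% in EHT cells. YS HSPC cells had both in 0 of 141 and 0 of 46 cells. Where Gja5 was seen in an E10 HE cell, Gja4 was seen in 97.7% of cases, and in E10 EHT cells in 68.2%. Across the cells of a population, Pearson's r between Gja4 and Gja5 counts was 0.44 over 43 non-HE, 0.41 over 98 HE and 0.62 over 191 EHT cells at E10. At E11 it was 0.64 over 30 non-HE, 0.17 over 46 HE, 0.56 over 46 EHT, 0.81 over 62 type I and 0.35 over 290 IAHC cells. Over 55 type II cells it was -0.05, where 3 cells held Gja4 and 3 others Gja5. These cells share plates and depth, and r is a description without a test.

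**Figure D2:**
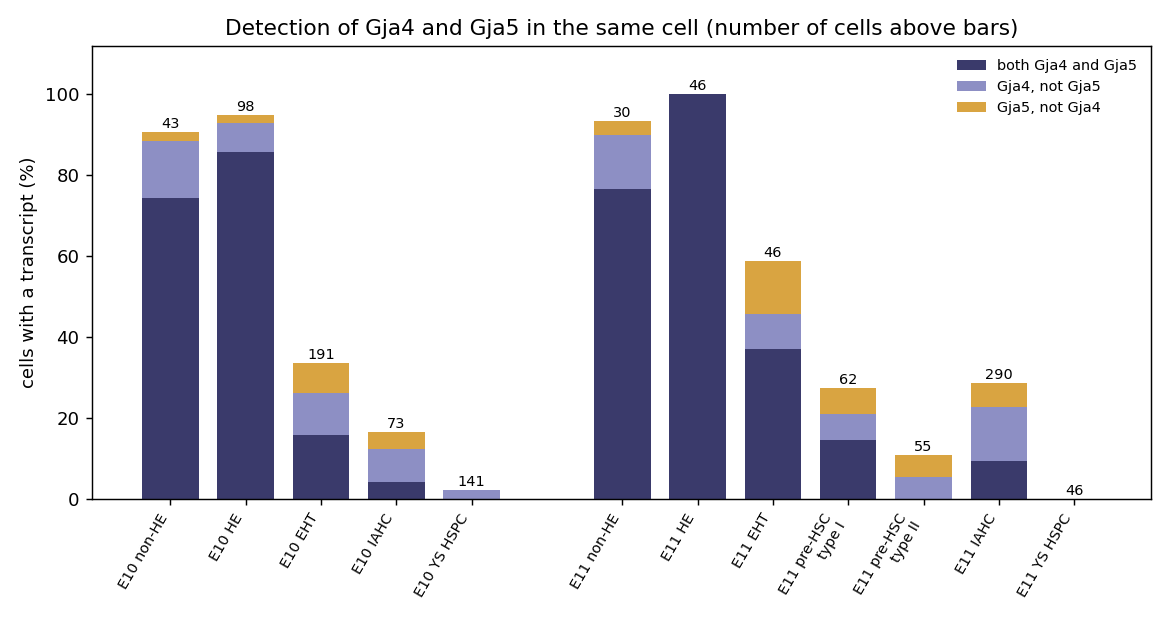
Percent of cells in each population with transcripts of both Gja4 and Gja5, of Gja4 only or of Gja5 only. E10 cells held 3000 and E11 cells 5000 transcripts. Both were seen in 85.7% of E10 HE cells, 15.7% of E10 EHT cells and 4.11% of E10 IAHC cells.

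The step from HE to EHT, in which c-kit appears in the sort, asks what endothelium loses as it turns to blood. Gja5 was 11.7-fold lower and Gja4 6.14-fold lower in EHT than in HE cells at E10. At E11 the log2 ratio of summed transcripts was -2.23 (-2.56 to -1.91) for Gja5 and -1.74 (-2.06 to -1.43) for Gja4. To set these beside other genes, a gene counts as past the fold where the log2 ratio of means, with 0.1 added, reaches 1 in size, among genes whose mean is 0.5 or more in 1 of the populations compared. A gene that reaches this level in only 1 of them is more easily found past the fold on that side, so the list counts below are descriptions. Of the 4 members, 2 pass that level filter, Gja4 and Gja5. Both were past the fold on the lower side at E10, where 10% of 1566 genes were lower and 4.21% higher. Both were lower at E11 as well, where 11.7% of 2554 genes were lower and 6.66% higher. Ordered from the lowest ratio, Gja5 was 1st and Gja4 3rd of 1566 at E10, and 21st and 71st of 2554 at E11. With 0.5 added instead of 0.1, both were still past the fold at this step at both stages. The E11 EHT counts sit in few cells: 3 of 46 cells held 36.4% of the Gja4 and 41.1% of the Gja5 transcripts, and cell counts ran from 0 to 22 and from 0 to 24.

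Lists of endothelial genes were set beside the connexins at this step, as counts past the fold and without a test. Of 18 arterial genes, 13 were measured at E10 and 12 were lower, with a median log2 ratio of -1.84 against 0.05 over all genes measured. At E11 it was 12 of 15, with a median of -1.64 against -0.05. Of the arterial genes, 3 at E10 and 8 at E11 reached the level filter in EHT cells. The others passed it through HE cells only, so they had little room to come out higher. Nrp1, a receptor for semaphorins and VEGF, went from 3.53 in HE to 0.916 in EHT cells at E10, and Sox17, a transcription factor of arterial identity, from 1.7 to 0.236. Of 16 junction partners and regulators of connexins, 8 were measured at E10 and 6 were lower (median -1.11), and at E11 4 of 11 (median -0.96). Within it, Cdh5, the adhesion molecule of endothelial adherens junctions, was lower at both stages (-1.09 and -1.13), while Ctnnb1, which links cadherins to actin, did not reach the fold (-0.97 and -0.21). Flow-responsive genes were lower in 3 of 3 measured at E10 and 4 of 4 at E11, with medians of -1.44 and -1.79, among them the transcription factor Klf2 (-1.44 and -1.66). The 3 measured at E10 reached the level filter in HE cells only, so they had little room to come out higher. Endothelial genes were lower in 6 of 9 and 8 of 10, with medians of -1.13 and -1.35, and venous genes in 1 of 1 and 1 of 2. Genes of the haematopoietic switch were higher in 5 of 7 at E10 and 7 of 7 at E11, with medians of 1.6 and 1.87. They include Kit, which encodes c-kit, so that its side was set by the sort. Among them Myb, a transcription factor of blood progenitors, went from 0.0102 to 0.796 transcripts per cell at E10, and Gpr56, an adhesion receptor of haematopoietic stem cells, from 0.959 to 3.04. Of the switch genes measured, only Gpr56 reached the level filter in HE cells, at either stage. The others passed it through EHT cells only, so they had little room to come out lower.

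**Figure D3:**
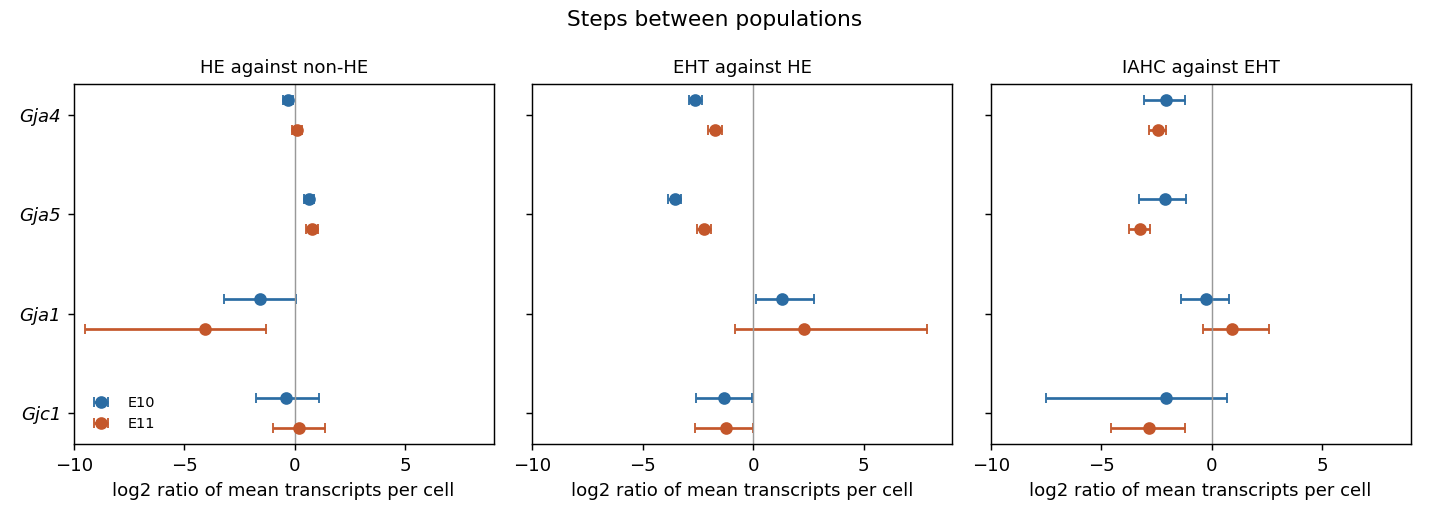
Log2 ratio of transcripts per cell for each connexin, with exact intervals, at E10 and E11. The steps are HE against non-HE, EHT against HE and IAHC against EHT. At EHT against HE, Gja5 lies at -3.55 and Gja4 at -2.62 at E10. With 0.1 added to the means these ratios were -3.33 and -2.46. Those values are below the medians of the arterial (-1.84) and junction (-1.11) lists, which are not drawn.

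Markers of other cells moved with this step too. The macrophage list summed to 0.235 per cell in E10 HE and 0.356 in E10 EHT cells, and to 0.130 in E11 HE and 5.22 in E11 EHT cells, where 6 of 7 genes were seen, Lgals3 was the most abundant at 1.7 and Cx3cr1 was at 0. At E11, 3 of 3 measured macrophage genes were higher, with a median of 4.13, although all 3 reached the level filter in EHT cells only, and 2 EHT cells held 4 or more of the 7 markers, as did 1 E10 HE cell. The mesenchyme and smooth muscle list summed to 1.8 in E10 HE and 0.832 in E10 EHT cells. In each of them 10 of 14 genes were seen, not all of them the same. Acta2 was the most abundant at 0.867 and 0.639, and Pdgfrb was at 0. At E11 the list summed to 2.72 and 1.43, with Pdgfrb again at 0. The erythroid list summed to 0.776 and 0.0628 at E10 and 0.761 and 0.174 at E11. Their part in the result was not tested.

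Within the EHT population the arterial connexins followed the endothelial genes cell by cell. Over 191 E10 and 46 E11 EHT cells, r of the summed Gja4 and Gja5 count was 0.76 and 0.81 with the arterial sum, 0.71 and 0.77 with the endothelial sum and 0.64 and 0.68 with the junction sum. With the flow sum it was 0.54 and 0.72, and with the haematopoietic switch sum -0.40 and -0.43. The 30 E10 EHT cells with both connexins averaged 12.7 arterial and 5.47 switch transcripts, and the 127 with neither 1.87 and 9.87. In E10 EHT cells with both, Myb averaged 0.267 (0.115 to 0.525) and Cdh5 4.57, and in those with neither 0.913 (0.755 to 1.1) and 1.3. Cells with both connexins thus carried more endothelial and fewer switch transcripts at equal depth. At equal depth a higher sum of some genes lowers that of others, and nothing was tested here. In endothelium itself the venous sum went the other way in non-HE cells, with r of -0.44 over 43 E10 cells and -0.62 over 30 E11 cells, beside 0.61 and 0.72 for the arterial sum. In 98 E10 HE cells r with the venous sum was 0.39.

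The comparison of HE with non-HE cells asks what sets the haemogenic part of the endothelium apart. In the E10 table HE columns read E10.5 and non-HE columns early E11, so age by column name and population cannot be told apart there. Gja5 was higher in HE, with log2 ratios of 0.64 (0.40 to 0.89) for the E10 cells and 0.79 (0.53 to 1.05) for those of E11, and both HE plates at E10 lay above both non-HE plates. Gja4 gave -0.31 (-0.54 to -0.06) at E10 and 0.10 (-0.14 to 0.35) at E11. At E10 this rests on the non-HE plate with 28 cells, without which it was 0.03, and without the non-HE plate with 19 cells the E11 value was 0.51. Neither gene reached the fold, so 0 of the 2 members that pass the level filter were past it, beside 2.7% of 1528 genes higher and 4.78% lower at E10 and 3.45% of 2551 genes higher and 4.04% lower at E11. With a minimum of 0.2 in place of 0.5, Gja1 was also measured and was past the fold on the lower side at E11 (-1.94), from 1 transcript in HE cells, but with 0.5 added it was not (-0.73). Arterial genes were lower in 1 of 14 at E10 (median -0.36, against 0.07 over all genes) and higher in 1 of 15 at E11 (median 0.28, against -0.03). Junction genes were lower in 1 of 10 at E10 (median -0.34) and past the fold in 0 of 10 at E11 (median 0.02). Flow genes were lower in 3 of 5 at E10 (median -1.50), with Klf2 at 0.949 in HE and 2.86 in non-HE cells, and past the fold in 0 of 4 at E11. Endothelial genes were lower in 1 of 9 at E10, Vwf (-1.08), and past the fold in 0 of 10 at E11. Venous genes were lower in 1 of 3 at E10 and 2 of 4 at E11 (median -1.64), while the switch gene Gpr56 was higher at both stages (2.64 and 2.81). Markers of other cells differed as well. The erythroid sum was 0.776 in HE and 0.0930 in non-HE cells at E10, and 0.761 and 0.167 at E11, led by Hbb-y in HE cells. The macrophage sum was 0.235 and 0.0930 at E10, and 0.130 and 0 at E11. Mesenchyme sums were 1.8 and 1.86, then 2.72 and 2.9, and of that list 1 gene, Acta2, was higher at both stages, of 1 and 4 measured. Their part in the result was not tested.

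After EHT, both arterial connexins were lower again in cluster cells. The IAHC against EHT log2 ratio of Gja4 was -2.06 (-3.05 to -1.21) at E10 and -2.44 (-2.82 to -2.06) at E11, and that of Gja5 was -2.13 (-3.30 to -1.15) and -3.25 (-3.73 to -2.77). Both were past the fold, Gja4 33rd and Gja5 37th from the lowest at E10, where 6.34% of 1546 genes were lower and 4.08% higher. At E11 they were 33rd and 14th, where 271 of 2352 genes (12%) were lower and 5.99% higher. With 0.5 added instead of 0.1 the E10 ratios were -0.84 and -0.74, short of the fold, while both E11 ratios still passed. Both genes enter this comparison through their level in EHT cells, since neither reached 0.5 in IAHC cells, and the same holds for the arterial genes below other than Nrp1 at E11 and for the macrophage genes. This step shares its EHT cells with the step before and crosses from ICR to C57BL/6 embryos. As an alternative, IAHC cells were kept only where they held more than 1 Gpr56 transcript and at most 2 of each of 11 genes of other cells. Counted here in the deposited cells, these were 54 of 73 and 187 of 290. The Gja4 ratio was then -3.63 (-5.92 to -2.05) at E10, from 3 transcripts in IAHC cells, and -2.85 (-3.32 to -2.39) at E11. Arterial genes were lower in 3 of 3 and 8 of 8, with medians of -1.94 and -2.09, while endothelial genes were lower in 0 of 7 and 3 of 8. Junction genes were lower in 1 of 7 and 3 of 10 and flow genes, measured at E11, in 2 of 3. Switch genes had medians of 0.01 and -0.09 at this step, with 1 of 8 lower at E10, and 1 higher and 2 lower of 8 at E11. Of the other lists, the 1 erythroid gene measured at E10 was higher (3.14), as was 1 of 2 committed progenitor genes at E10 and 2 of 2 at E11, and 3 of 3 macrophage genes were lower at E11. Erythroid sums were 1.55 per cell in E10 and 0.383 in E11 IAHC cells, with Hbb-y the most abundant in both, Klf1 at 0 at E10 and Hba-a2 at 0 at E11, and committed progenitor sums 1.59 and 2.36. Their part in the result was not tested.

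The 2 sorts of E11 cluster cells are a single sample each, so their values are described without a test. Pooled Gja4 and Gja5 were higher in c-kit+ CD31+ than in c-kit+ cells, but plates overlapped for both genes. In c-kit+ CD31+ cells Gja4 averaged 0.522 (0.427 to 0.632) and Gja5 0.284 (0.215 to 0.367), and in c-kit+ cells 0.258 (0.164 to 0.388) and 0.0674 (0.0247 to 0.147). CD31 is the endothelial adhesion molecule encoded by Pecam1. The log2 ratio was 1.02 (0.35 to 1.73) for Gja4, 2.07 (0.86 to 3.58) for Gja5, -0.43 (-1.22 to 0.41) for Gja1 and -0.76 (-3.32 to 2.01) for Gjc1, the last from 4 and 3 transcripts. Plates overlapped for Gja4, from 0.320 to 0.698 in the 4 c-kit+ CD31+ plates and from 0 to 0.438 in the 5 c-kit+ plates. Those of Gja5 overlapped as well, from 0.0612 to 0.440 and from 0 to 0.133. Arterial sums were 2.62 and 2.43 per cell, endothelial sums 12.6 and 8 and flow sums 1.51 and 0.517. Against EHT cells, c-kit+ cells alone gave -3.21 for Gja4 and -4.94 for Gja5. Mesenchyme sums were 1.77 and 2.34, with 12 of 14 genes seen in each, erythroid sums 0.249 and 0.685 and committed progenitor sums 2.01 and 3.15. Macrophage sums were 0.741 and 0.438. Their part in the result was not tested.

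Among pre-HSCs, most transcripts of the arterial connexins lay in type I cells of a single plate. That plate, with 34 of the 62 cells, held 31 of 32 Gja4 and 33 of 34 Gja5 transcripts, and 3 cells held 50% and 64.7% of all. Against EHT cells the log2 ratio was -2.21 (-2.83 to -1.63) for Gja4 and -1.91 (-2.52 to -1.33) for Gja5, and without that plate -6.07 and -5.85. Type II cells held 3 Gja4 and 4 Gja5 transcripts in 55 cells, a log2 ratio to type I of -3.24 (-5.59 to -1.57) and -2.91 (-4.87 to -1.43). The plate of type II cells with the same set number held 3 of the 3 and 3 of the 4, so this ratio too rests on a single set. The arterial sum was 3.69 per cell in type I and 1.00 in type II cells. Over the 62 type I cells r of the connexin count with this sum was 0.81, and Spearman's correlation was 0.47. Against type II cells, IAHC cells gave 3.02 (1.44 to 5.31) for Gja4 and 1.58 (0.15 to 3.50) for Gja5. For c-kit+ IAHC cells alone it was 2.2 (0.52 to 4.62) and -0.11 (-2.19 to 2.16), so the Gja5 value rests on c-kit+ CD31+ cells, and at 3000 transcripts its interval included 0 (1.73, -0.23 to 4.83). Erythroid sums were 3.52 in type I and 2.42 in type II cells, led by Hbb-y with Hba-a2 at 0, mesenchyme sums 1.34 and 0.509 and committed progenitor sums 0.984 and 2.6. Their part in the result was not tested.

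Between stages, with all cells at 3000 transcripts, Gja4 and Gja5 differed mainly in EHT cells. E11 over E10 gave a log2 ratio of 1.04 (0.59 to 1.5) for Gja4 and 1.07 (0.56 to 1.56) for Gja5 in EHT cells. The 3 E10 plates of EHT cells reached at most 0.793 for Gja4, and the thinned E11 plate held 1.4. In HE cells the ratios were 0.15 (-0.10 to 0.39) and -0.04 (-0.25 to 0.17), and in non-HE cells -0.33 (-0.66 to -0.01) and -0.02 (-0.36 to 0.33). By column name the non-HE cells labelled E10 were early E11. In IAHC cells the ratios were 0.67 (-0.21 to 1.7) and -0.03 (-1.12 to 1.2). These IAHC groups are unlike, since E10 cells were all c-kit+ CD31+ and E11 cells include c-kit+ ones. At 3000 transcripts, E11 c-kit+ CD31+ cells alone averaged 0.303 for Gja4 and 0.159 for Gja5. E10 IAHC cells averaged 0.164 and 0.123. E11 EHT cells were a single plate, so stage and plate cannot be told apart there. At 5000 transcripts 3 of its 46 cells held 36.4% of the Gja4 and 41.1% of the Gja5 transcripts, and the macrophage sum was 5.22 against 0.356 in E10 EHT cells at 3000. Their part in the result was not tested.

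Gja1, connexin 43, was low throughout and did not follow the arterial pair. At E10 it averaged 0.107 and 0.400 in the non-HE plates, 0.0270 and 0.0984 in the HE plates, and 0.172, 0.1 and 0.218 in the EHT plates. IAHC cells held 0.151 (0.0752 to 0.27) and YS HSPC cells 0.0213, from 3 transcripts in 141 cells. HE cells thus held the least in the aorta, with 7.14% of cells showing a transcript, against 15.7% of EHT and 2.13% of YS HSPC cells. At E11, HE cells held 1 transcript in 46 cells, non-HE cells 0.367 (0.183 to 0.656) and EHT cells 0.109 (0.0353 to 0.254). Type I pre-HSCs held 0.113 and type II cells 0.182, and IAHC plates ran from 0.0816 to 0.429 with a median of 0.231. These plates overlap, and the E11 YS HSPC mean of 0.174 (0.0751 to 0.343) lies in the same range, with 4 of its 8 transcripts in 1 cell. At a depth of 5000 the YS HSPC share of 10.9% is close to the 17.2% of IAHC, 18.2% of type II and 10.9% of EHT cells. The HE against non-HE log2 ratio was -1.55 (-3.21 to 0.04) at E10 and -4.08 (-9.50 to -1.29) at E11, and with E11 cells at 3000 transcripts it was -2.94 (-8.50 to 0.22), from 1 against 5 transcripts. At E10 this depends on the plates, with -0.58 (-2.72 to 2.00) without the non-HE plate of 15 cells and -2.95 (-8.41 to -0.10) without the HE plate of 61. EHT against HE gave 1.32 (0.12 to 2.74) at E10 and 2.32 (-0.84 to 7.89) at E11, while Gja4 and Gja5 were lower at that step. Its E10 interval included 0 once a plate was left out, with 1.01 (-0.37 to 2.55) without the EHT plate of 87 cells and 0.86 (-0.41 to 2.40) without the HE plate of 37, although each EHT plate lay above each HE plate. IAHC against EHT gave -0.24 (-1.37 to 0.77) and 0.90 (-0.40 to 2.58). Over 43 E10 non-HE cells, r between Gja1 and Gja4 counts was -0.17, and over 30 E11 non-HE cells -0.34. In 191 E10 EHT cells it was 0.07, which in counts this sparse is no finding.

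Gjc1, connexin 45, was low throughout and was highest in endothelium, where HE cells held more of it than of Gja1. At E10 it averaged 0.143 and 0.267 in the non-HE plates, 0.108 and 0.164 in the HE plates and 0.0625, 0.0250 and 0.0690 in the EHT plates. IAHC cells held 1 transcript in 73 cells and YS HSPC cells 0 in 141. Non-HE and HE plates overlapped, and each lay above the EHT plates. At E11 non-HE cells held 0.367 (0.183 to 0.656), HE cells 0.413 (0.249 to 0.645) and EHT cells 0.174 (0.0751 to 0.343). Type I pre-HSCs held 0 in 62 cells, which allows up to 4.84% of cells, type II cells 2 in 55 and IAHC cells 7 in 290 (2.41%). YS HSPC cells held 1 in 46 (2.17%, 0.055 to 12), too few to set a background share. EHT against HE gave -1.31 (-2.59 to -0.07) in log2 for E10 cells and -1.25 (-2.65 to 0.01) for E11 cells. IAHC against HE gave -3.38 (-8.78 to -0.67) and -4.10 (-5.59 to -2.78). HE against non-HE gave -0.38 (-1.73 to 1.08) and 0.17 (-0.97 to 1.4), not detectable as a difference at this depth. With E11 cells at 3000 transcripts the E11 ratio was 1.08 (-0.61 to 3.16), from 13 against 4 transcripts. All 4 connexins together summed to 10.7 transcripts per cell in E10 HE, 1.46 in EHT, 0.452 in IAHC and 0.0426 in YS HSPC cells, and to 18.1, 4.7, 0.886 and 0.196 at E11.

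The other genes of the connexin and pannexin family added little. The tables list 20 genes, the 4 members included, of which 12 had a transcript in a single cell and 8 had none. Of 3757 transcripts, 3609 (96.1%) came from the 4 members: 1714 of Gja5, 1648 of Gja4, 165 of Gja1 and 82 of Gjc1. Panx1, a pannexin that forms channels in unpaired membranes, gave 120 transcripts in 109 cells.

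The genes most like Gja4 and Gja5 across populations were sought by Pearson's r of log2 mean transcripts per cell, with 0.1 added, over the 12 populations of both stages at 3000 transcripts, among 2405 genes whose mean reaches 0.5 somewhere. For Gja4 the 5 nearest were Nrp1, Epas1, Gja5, Smad6 and Tmem2, with r at 0.99 for each. For Gja5 they were Ctsh, Cdc42ep1, Aplp2, Dll4 and Gja4, also at 0.99. Each connexin was thus among the other's 5 nearest genes. The next 3 genes are named after their values were seen. Epas1, a hypoxia-inducible factor of endothelium, held 2.38 in E10 HE, 0.440 in EHT and 0.0822 in IAHC cells. Ctsh, the lysosomal protease cathepsin H, held 2.05, 0.314 and 0.110 in the same cells, and Dll4, an arterial Notch ligand, 0.827, 0.225 and 0.0274. Ranked by Spearman's correlation instead, 0 of the 5 names for Gja4 and 2 for Gja5, Ctsh and Dll4, were the same. The populations fall into endothelial and blood-forming groups, and r describes that contrast without a test. Gja1 and Gjc1 did not reach 0.5 transcripts per cell in a population, so no such genes were sought.

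**Figure D4:**
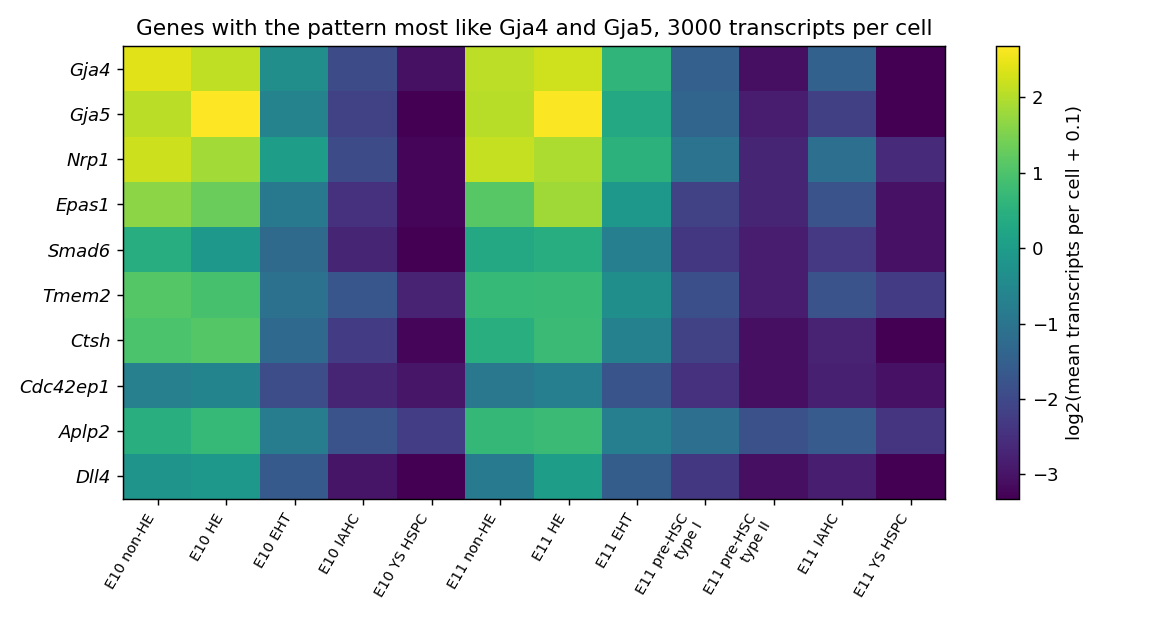
Colour map of log2 mean transcripts per cell, with 0.1 added, of Gja4, Gja5 and the 5 genes most like each over the 12 populations. All cells were at 3000 transcripts. Epas1 and Ctsh hold 2.38 and 2.05 in E10 HE cells and 0.0822 and 0.110 in E10 IAHC cells.

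Whole clusters, each sequenced as a unit, give the connexins of clusters that were not dissociated. Of 109 libraries, 57 held at least 5000 transcripts and were used: 21 ventral and 7 dorsal at E10, 17 ventral and 12 dorsal at E11, with 5099 to 115328 transcripts and a median of 12838. In such libraries fewer cells of a type and less RNA per cell cannot be told apart. Gja1, the lowest of the 3 Gja members in sorted HE cells, had the most transcripts here over all groups, with 93 in 35 of 57 libraries. Gja4 gave 38 in 21, Gja5 9 in 8 and Gjc1 8 in 6. Per 10000 transcripts, Gja1 ran from 0 to 3.24 in E10 ventral libraries (median 0.57), from 0 to 0.743 in E10 dorsal (median 0), from 0 to 2.5 in E11 ventral (median 0.780) and from 0 to 1.46 in E11 dorsal libraries (median 0.720). The 4 groups overlap. In E10 dorsal clusters Gja1 and Gja4 were level, with 8 transcripts each. Gja4 had a median of 0 in each group, with highest values of 1.68, 1.1, 1.3 and 3.27 in the same order. Gja5 was seen in 1 of 21, 0 of 7, 3 of 17 and 4 of 12 libraries, and Gjc1 in 5, 0, 1 and 0.

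**Figure D5:**
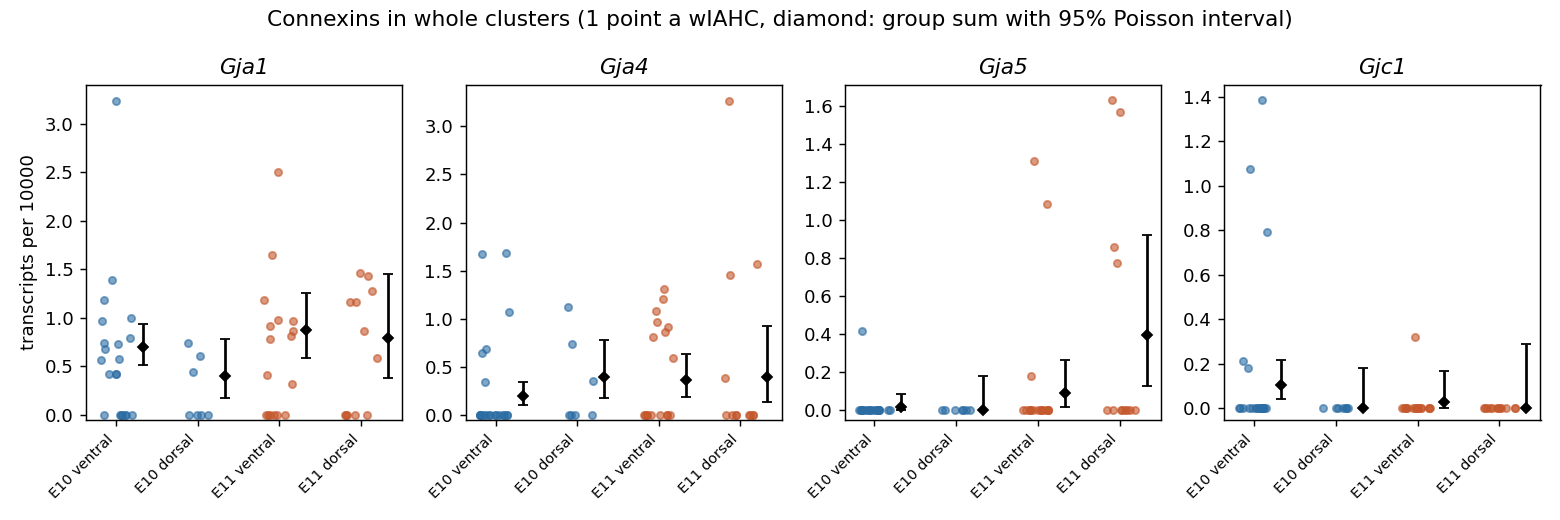
Transcripts per 10000 of each connexin in each whole cluster library with at least 5000 transcripts, by stage and side, with the group's pooled value. Pooled Gja1 lies at 0.698 (ventral) and 0.395 (dorsal) at E10, and at 0.870 (ventral) and 0.790 (dorsal) at E11, and single libraries overlap between groups.

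Set beside single IAHC cells on the same scale, whole clusters held less of the arterial connexins than cells sorted as c-kit+ CD31+, but at E11 not detectably less than those sorted as c-kit+. At E10, Gja4 was at 0.244 against 0.548 per 10000, a log2 ratio of -1.17 (-2.26 to -0.01), and Gja5 at 0.0116 against 0.411, from 1 transcript, a ratio of -5.15 (-10.60 to -2.29). At E11, against IAHC cells of both sorts, the ratios were -1.26 (-2.08 to -0.52) and -1.32 (-2.59 to -0.25). Against c-kit+ CD31+ cells alone, added after the data were seen, they were -1.50 (-2.33 to -0.75) and -1.70 (-2.98 to -0.63). The E11 libraries, whose column names fall into a first and a second set, differed within themselves. Gja4 was at 0.156 in the 10 libraries of the first set and 0.524 in the 19 of the second, against 0.883 in IAHC cells. Gja5 was at 0.0900 in ventral and 0.395 in dorsal clusters, against 0.434. Gja1 was on the other side, with 0.32 (-0.63 to 1.4) at E10 and 1.06 (0.44 to 1.67) at E11. Clusters were picked from embryo slices by c-kit staining and were not sorted. Against the E11 c-kit+ cells alone, the ratio was -0.48 (-1.48 to 0.48) for Gja4, 0.37 (-1.35 to 2.17) for Gja5 and 0.78 (-0.01 to 1.6) for Gja1. This comparison was added after the data were seen. Both kinds of sample are C57BL/6, but they differ in sort, collection and depth, and the difference was not tested. The mesenchyme and smooth muscle list summed to 2.29 per 10000 in ventral and 1.34 in dorsal clusters at E10, and to 7.05 and 9.07 at E11, with 12, 9, 13 and 12 of 14 genes seen. Acta2 was its most abundant gene, at 1.00, 0.646, 2.8 and 2.55, and Pdgfrb was at 0 in each group. The arterial list summed to 1.97, 1.8, 5.01 and 8.27 and the endothelial list to 11, 11, 12.6 and 21.5. The macrophage list summed to 1.63, 1.3, 0.844 and 0.875, led by Lyz2, with Ctss, Lgals3 and Aif1 at 0 in each. The erythroid list summed to 1.75, 1.99, 201 and 146, led by Hbb-y, and haemoglobin made up more than 10% of 3 of the E11 libraries. Without these, pooled Gja1 was 0.954 in E11 ventral and 0.824 in E11 dorsal clusters. The part of these cell types in the connexin levels was not tested.

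Stage and side were tested over wIAHCs with edgeR, although p-values are too small because wIAHCs of an embryo cannot be recognised. Of the 4 connexins, 0 passed edgeR's filter on low counts, which kept 260 genes. Among those, 31.2% were called between E11 and E10 in ventral and 9.23% in dorsal clusters, by Benjamini-Hochberg adjusted p at 0.05. In the filtered fit, 0 genes (0%) were called between the sides at E11, 0 (0%) between the sides at E10 and 0 (0%) for the interaction, with 23, 20 and 26 genes at an unadjusted p under 0.05 and 1, 0 and 0 by DESeq2. Of the lists, 3 erythroid genes, Hba-x, Hbb-bh1 and Hbb-y, were tested and called higher at E11 on both sides, with medians of 8.09 and 7.07. The fit does not model the 2 sets of column names at E11. Haemoglobin made up 0.0073 to 0.174% of the 10 libraries of the first and 0.192 to 27.5% of the 19 of the second. In E10 libraries it made up at most 0.0541%. The 1 junction gene (Ctnnb1) and the 1 switch gene tested were not called. In a fit without the filter, on 13627 genes, 0 of 4 connexins were called in any of the 5 contrasts, beside 2.27% and 0.785% of genes for stage, 0.0881% for side at E11, 0.0587% for side at E10 and 0.154% for the interaction. DESeq2 called 0 of the connexins it tested, 2 in the ventral and 1 in the dorsal stage contrast and 4 in each of the others. It called 4.60% of genes for stage in ventral and 1.51% in dorsal clusters, 0.00734% for side at E11, 0% for side at E10 and 0% for the interaction. The lowest unadjusted p of a connexin in the unfiltered edgeR fit was 0.00618, for Gja5 in dorsal clusters, with an adjusted p of 0.202. There, 4 of 12 E11 and 0 of 7 E10 libraries held a Gja5 transcript, at least 2.67-fold higher at E11 against a floor of 3 transcripts over the E10 group. Other adjusted p-values of the connexins in that fit ran from 0.484 to 1.00. Depth limits what could be seen, since a cluster of median depth held about 1 Gja1 transcript.

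Several limits apply to these values. Most populations are a single sample, some of them a single plate, so intervals leave out differences between embryos and sorts. HE and EHT cells come from another strain than the IAHC, pre-HSC and YS HSPC cells. Gja1 and Gjc1 were counted so rarely that a share of cells with a transcript is not a share of cells that express the gene. Whole clusters vary in depth, and the embryo of each is not given. The tables used here hold transcripts, and neither connexin proteins nor channels.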

How the data were processed

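Single cells and whole clusters were sequenced by CEL-Seq, and per the labels reads were mapped with BWA 0.6.2-r126 to mm10 in the submitters' processing. The deposited tables hold an estimated count of transcripts per gene, corrected by the authors for molecular barcodes, and single cells were brought by the authors to 3000 (E10) or 5000 (E11) transcripts. E11 cells were thinned to 3000 for comparisons between stages. In the whole clusters 90 spike-in entries and 52 libraries under 5000 transcripts were left out. Members and lists were chosen with earlier results of these data known. Lists cover junction partners, arterial, venous and flow genes, endothelium, the haematopoietic switch, mesenchyme, macrophage, erythroid and committed progenitor genes, and genes named from them are the 4 of highest mean in the population that defines the list, unless said otherwise. Ratios use summed transcripts with exact intervals, and a group without transcripts is bounded by a floor of 3. Whole clusters were tested with edgeR 4.0.16 after filterByExpr, with DESeq2 1.42.0 as alternative, in R 4.3.3. Other steps used Python 3.11.15, numpy 2.4.6, pandas 2.3.3, scipy 1.17.1 and matplotlib 3.10.9. Alternatives left out plates, kept IAHC cells by Gpr56 and genes of other cells, or changed pseudocount, minimum, filter, tool or depth, and some were added after the data were seen. Some genes of the lists and of the connexin family are not reported here.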

Additional observations from a re-analysis of the deposited data

Results flagged for a closer look

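Some values differed between the stages or stood out. HE against non-HE cells gave a log2 ratio for Gja4 of -0.31 at E10 and 0.10 at E11, and for Gjc1 of -0.38 and 0.17. IAHC against EHT cells gave -0.24 and 0.90 for Gja1. These differences between stages were not tested. The 52 whole clusters left out for depth held 5 Gja1 transcripts, in 4 libraries, above the floor of 3.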

How the results depend on the processing

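Of 136 planned log2 ratios of connexins 132 stayed inside the 95% interval of the main value, and of 36 added after the data were seen 29 did. Of 45 shares of cells 36 stayed inside theirs. These intervals are wide for Gja1 and Gjc1: Gja1 in HE against non-HE cells at E10 ran from -0.58 to -2.95 and in EHT against HE cells from 0.86 to 2.72, and in IAHC against EHT cells it was 0.063 without the third EHT plate. The sign changed for Gja4 in HE against non-HE cells at E10, from -0.31 to 0.028 without the first non-HE plate, and at E11 the ratio was 0.51 without the second non-HE plate. In IAHC cells kept by Gpr56 and genes of other cells Gja4 against EHT was -3.63 at E10, from 3 transcripts in IAHC cells, and -2.85 at E11. Added alternatives moved type I pre-HSCs against EHT to -6.07 (Gja4) and -5.85 (Gja5) without the second plate, and c-kit+ IAHC cells alone gave -3.21 and -4.94. With c-kit+ IAHC cells alone, also added, wIAHCs against IAHC cells at E11 went from -1.26 to -0.48 for Gja4 and changed sign for Gja5, from -1.32 to 0.37, as did Gja5 in IAHC against type II cells, from 1.58 to -0.11. Genes called in whole clusters were 81 and 24 for stage (ventral, dorsal) and 0 in the other 3 contrasts. DESeq2 called 238, 62 and 1, the fit without filter 310, 107, 12, 8 and 21, and a minimum of 10000 transcripts 132 and 3. Genes past the fold, higher and lower, were 41 and 73 (HE against non-HE), 66 and 157 (EHT against HE) and 63 and 98 (IAHC against EHT) at E10, and 88 and 103, 170 and 299, and 141 and 271 at E11. With 0.5 added they were 5 and 27, 19 and 46, 11 and 29, then 6 and 17, 49 and 109, 29 and 91. With a minimum of 0.2 they were 142 and 178, 140 and 282, 92 and 233, then 329 and 308, 385 and 541, 254 and 554. Spearman's correlation kept 0 of 5 genes for Gja4 and 2 for Gja5. The cause was not tested. No label links cells or clusters of an embryo, so no analysis paired by embryo was possible. E11 ventral and dorsal clusters occur in both sets of column names, but no fit blocked by set was run. Type I and type II plates share set numbers, and by set Gja4 was 0 and 0, 0.912 and 0.12, and 0.05 and 0, and Gja5 0 and 0, 0.971 and 0.12, and 0.05 and 0.05. Leaving out single wIAHCs was not run because no group held 5 or fewer (the smallest held 7).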
